A study of Caenorhabditis elegans with 2 samples.

Results

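Of the 2703 sites bound by tagged TRA-1 in the main deposited list, 242 had a summit in an exon of a protein-coding gene on an autosome. A site was counted when its summit lay in a coding or untranslated exon of a protein-coding gene in the Ensembl release 115 annotation of WBcel235, and more than 100 bp from any tRNA gene. These exonic sites were 144 in coding exons, 67 in 5' UTRs and 31 in 3' UTRs, where a summit in several classes was given to the coding exon first and the 5' UTR next (5 summits). They lay in 225 host genes and were set against the other 1653 autosomal sites that were also away from tRNA genes, of which 517 lay in introns and 1130 outside genes. A further 6 sites lay in exons of noncoding transcripts alone and were not counted as exonic.

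The series mapped TRA-1 by chromatin immunoprecipitation and sequencing in *Caenorhabditis elegans*. All animals were of strain DZ840 and carried ez72, an allele of tra-1 on chromosome III that fuses biotag::GFP::TEV::3xflag to the gene. CRISPR inserted the tag at the gene's own locus, so every animal carried it and no untagged group was used here. Whole L4 larvae aged 48 h, synchronised as starved L1 larvae after bleaching, gave 2 biological replicates of 1 group. Chromatin was sonicated to 200 to 800 bp and precipitated with an antibody against GFP, sex was not recorded, and all cell types were mixed. There is no second condition, so sites are described by counts, medians and 95% Wilson intervals, which cover counting error only, and no p-value is given. The lists carry no read counts, so depth is unknown, and signal means the peak value given by the authors, without a stated unit.

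TRA-1 belongs to the GLI family of zinc-finger proteins and is the terminal regulator of somatic sex determination in the nematode, where it represses genes of male development. Binding sites of such factors are usually sought in promoters and enhancers. In this compact genome, introns and intergenic stretches are short, many genes have internal starts, and trans-splicing of a leader removes the original 5' ends of many transcripts, so an annotated 5' UTR can lie close to, or away from, the place where transcription starts.

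The sequence around an exonic summit was searched for 4 words, each on both strands and within 50 bp of the summit: the TRA-1 core TGGGTGGTC, the GATA word CTTATCA, the CT word CTCTCTC and GAGACGC. The CT word read on its other strand and GAGACGC both begin with GAGA, so copies of them can overlap. Among the 242 exonic sites, 6 held the core with up to 1 mismatch, and 1 of them, in F10A3.4, held it exactly. That site lay in exon 9 or exon 10 of its host, depending on the transcript. The windows of 4 of these sites, the exact match and 3 with a mismatch, are shown so that the matched bases can be compared with the known TRA-1 core. The sequence is RefSeq's for WBcel235 (ce11), 5′ to 3′ on the strand named, with the core match in capitals.
F10A3.4, coding exon, chrV:16151581-16151610, minus strand: aaactgtggacTGGGTGGTCagtgcaggtc
mdt-26, coding exon, chrII:5661181-5661210, plus strand: gggctgtgaaTGGATGGTCgcttgcgctgc
F53E10.1, 5' UTR, chrV:2615514-2615543, plus strand: ttgtagatagTGGGGGGTCggtcagcaggt
cyc-2.1, 5' UTR, chrIV:4748975-4749004, plus strand: acaagtcagcTGGGCGGTCcgatgccttat

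Counted from 1 at the core's 5′ end, the substitution was G4A at mdt-26, T5G at F53E10.1 and T5C at cyc-2.1. The match lay 37 bp from the summit at F10A3.4, 42 bp at mdt-26, 15 bp at F53E10.1 and 10 bp at cyc-2.1. All 4 lay below the median signal of the other autosomal sites (106.2), with 77.1 at F10A3.4, 93.6 at mdt-26, 89.3 at F53E10.1 and 68.3 at cyc-2.1. mdt-26 encodes a Mediator subunit and cyc-2.1 a cytochrome c. The other members with a mismatched core were in coding exons of acdh-1, an acyl-CoA dehydrogenase gene, with a signal of 99.9, and of F55H12.7, with 88.4.

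The core was as frequent at exonic sites as elsewhere within counting error. It was present with up to 1 mismatch at 2.48% of exonic sites (interval 1.14 to 5.30%) and at 2.06% of the other autosomal sites (1.48 to 2.86%). By class it was found at 4 of 144 coding exon sites (2.78%), at 2 of 67 5' UTR sites (2.99%) and at 0 of 31 3' UTR sites, for which the interval reaches 11.0%. Among exonic sites of the authors' ranked list that did not reach the main list, it was found at 1.36% in coding exons, 1.16% in 5' UTRs and 0.756% in 3' UTRs.

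Among the other words, the CT word and GAGACGC were found mostly in the UTRs. The CT word was within 50 bp of 10 of 67 5' UTR summits (14.9%, interval 8.31 to 25.3%) and 3 of 31 3' UTR summits (9.68%), against 2 of 144 coding exon summits (1.39%, interval 0.382 to 4.92%). It was near 10.6% of the other autosomal sites (9.19 to 12.2%). GAGACGC was at 5 5' UTR sites (7.46%), 3 3' UTR sites (9.68%) and 1 coding exon site (0.694%, interval 0.123 to 3.83%), with 8.95% at the other autosomal sites (7.67 to 10.4%). For both words the coding exon interval lay below the interval of the other autosomal sites, while the intervals of the 5' and 3' UTR sites included it or overlapped it. The GATA word, which GATA-family factors of the intestine and epidermis can bind, was at 8 coding exon sites (5.56%), 7 5' UTR sites (10.4%) and 3 3' UTR sites (9.68%), with 9.92% at the other autosomal sites, and these intervals overlapped.

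In the same classes, ranked sites that did not reach the main list held the CT word at 0.890% in coding exons, 4.07% in 5' UTRs and 3.38% in 3' UTRs. They held GAGACGC at 0.713%, 2.33% and 0.656% and the GATA word at 1.70%, 3.39% and 1.51% in the same order. In coding exons the CT word and GAGACGC of unlisted sites had shares inside the intervals of listed sites. So had the CT word in 3' UTRs, where the listed interval began at 3.35%. Below the listed intervals lay the unlisted shares of the GATA word in every class, GAGACGC in both UTR classes and the CT word in 5' UTRs. The median GC content over the same windows was 44.6% for exonic sites and 45.5% for the other autosomal sites, but 43.6%, 39.6% and 34.7% for unlisted ranked sites in coding exons, 5' UTRs and 3' UTRs. The part of base composition in the word shares was not tested. Windows with these words are shown to let the UTR examples be compared, with the word in capitals.
C05D11.8, 3' UTR, chrIII:6421214-6421243, minus strand: tctgacgccgtgGAGACGCagacagtgagg
hxk-3, 5' UTR, chrIV:1497626-1497655, minus strand: gtagagggtgtgGAGACGCagacactgaaa
F53E10.1, 5' UTR, chrV:2615475-2615504, plus strand: agggaatggagGAGACGCcgacaatgaggc
cept-2, 3' UTR, chrV:14351066-14351095, plus strand: cacaaaattcaCTCTCTCacattcactcct
M01H9.3, 5' UTR, chrIV:4470019-4470048, minus strand: gtagagagctttCTCTCTCccaccccctat
prk-2, 5' UTR, chrIII:3370145-3370174, plus strand: cgaaaagcttcCTTATCActgataactgac
col-153, 3' UTR, chrV:10951829-10951858, minus strand: tgatgccccgaaCTTATCAcgccattgcac

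C05D11.8, the strongest 3' UTR site, held GAGACGC 3 bp from its summit, and hxk-3, which encodes a hexokinase, held it 7 bp from its summit. The 5' UTR site of F53E10.1 carried the mismatched core, GAGACGC and the CT word within 50 bp of 1 summit. The strongest coding exon site, at Y18D10A.4 on chromosome I, carried both the CT word and GAGACGC, and was the single coding exon site with GAGACGC.

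**Figure D1:**
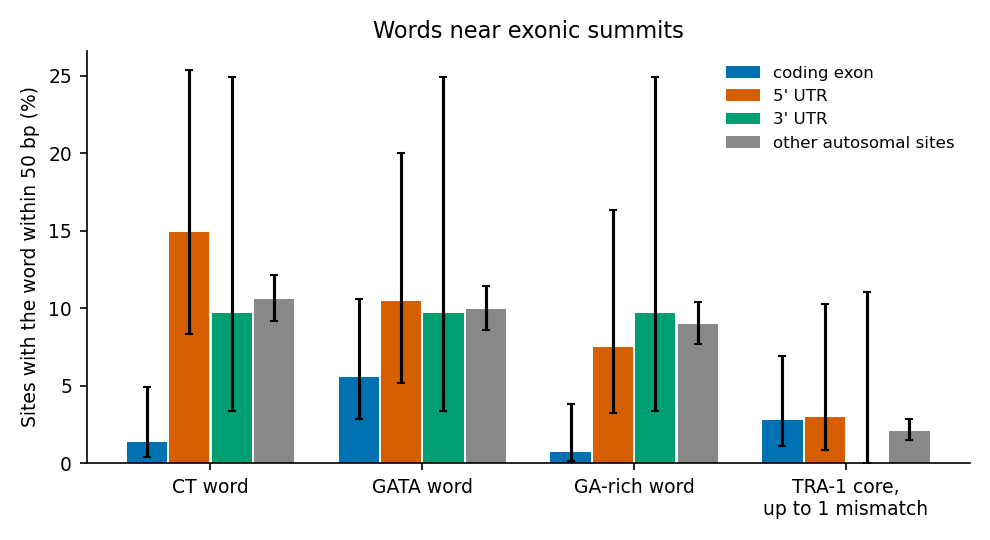
Share of sites with each word within 50 bp of the summit (%), for coding exon (n = 144), 5' UTR (67) and 3' UTR (31) sites and for the other 1653 autosomal sites; the GA-rich word is GAGACGC and error bars are 95% Wilson intervals. Coding exon bars are low for the CT word (1.39%) and the GA-rich word (0.694%), and the intervals for the core all overlap.

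Exonic sites were scarce in coding sequence and dense in 5' UTRs. Coding exons made up 25.7% of autosomal sequence and held 7.60% of the autosomal sites away from tRNA genes, a density of 6.79 sites per Mb. Annotated 5' UTRs made up 1.44% of the sequence and held 3.54% of the sites, at 56.3 per Mb, and 3' UTRs made up 3.28% and held 1.64%, at 11.5 per Mb. Introns had 18.6 sites per Mb and sequence outside genes 38.2 per Mb. The density in 5' UTRs was therefore above that outside genes, and those in coding exons and 3' UTRs were below that of introns. Within 500 bp of a protein-coding start lay 86.8% of 5' UTR bases, against 21.6% of bases outside genes and 20.9% of intron bases. Densities at a like distance from a start were not computed.

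The shares of ranked sites that reached the main list had the same order, and they rest on the same listed sites as the densities. The ranked list of both replicates held 78883 sites, of which 3.43% reached the main list. Of ranked sites in coding exons, 144 of 21035 did so (0.685%, interval 0.582 to 0.805%), against 67 of 1098 in 5' UTRs (6.10%, 4.83 to 7.68%) and 31 of 2014 in 3' UTRs (1.54%, 1.09 to 2.18%). The shares were 2.48% for introns (2.27 to 2.70%) and 5.57% for sequence outside genes (5.26 to 5.90%). The interval of the 5' UTRs overlapped that of sequence outside genes, and the coding exon interval lay below all others.

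**Figure D2:**
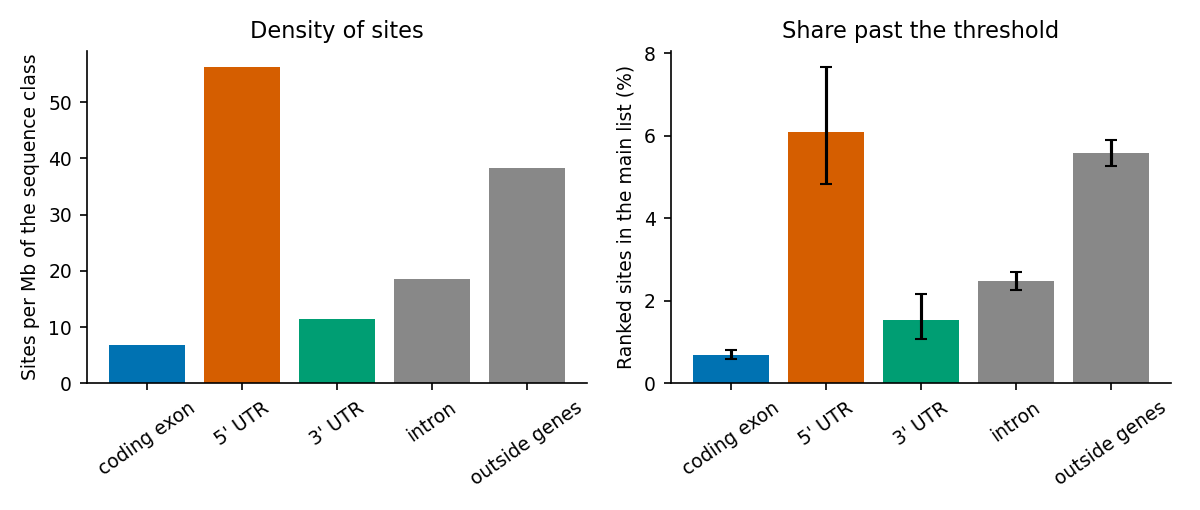
Left, sites of the main list per Mb of each class of autosomal sequence. Right, share of ranked sites (%) that reached the main list, with 95% Wilson intervals. The 5' UTR bars are the tallest in both panels (56.3 per Mb and 6.10%) and the coding exon bars the lowest (6.79 per Mb and 0.685%).

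The signal of exonic sites was lower than that of other autosomal sites, mainly in coding exons. The median was 87.6 over the 242 exonic sites (range 2.30 to 240.7) and 106.2 over the other autosomal sites. By class it was 83.7 in coding exons (quartiles 75.4 and 94.0), 98.9 in 5' UTRs (82.1 and 126.9) and 89.3 in 3' UTRs (79.4 and 114.1), against 100.8 in introns and 108.7 outside genes. The classes overlapped widely, since the strongest member of each reached 217.2 in coding exons, 240.7 in 5' UTRs and 220.3 in 3' UTRs. Of all 2703 sites ranked by signal, the highest 25% held 5 coding exon sites (3.47% of them), 12 5' UTR sites (17.9%) and 2 3' UTR sites (6.45%), against 25.9% of the other autosomal sites. The lowest 25% held 78 coding exon sites (54.2%), 18 5' UTR sites (26.9%) and 13 3' UTR sites (41.9%), against 23.8% of the other autosomal sites.

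**Figure D3:**
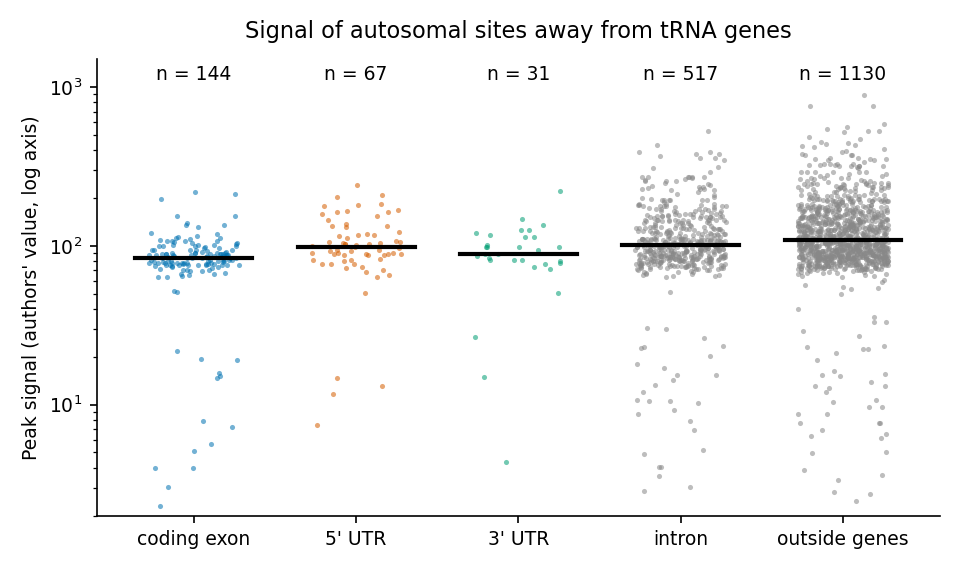
Signal of each autosomal site away from tRNA genes, on a log axis, by class; each point is 1 site and black lines are medians. The median of coding exon sites (83.7) lies below those of introns (100.8) and sequence outside genes (108.7), that of 5' UTR sites is 98.9, and a thin tail of sites lies below 40 in every class.

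Each replicate showed the same order of coding exons below 5' UTRs. Taking for each site the strongest overlapping peak in a replicate's own ranked list, the medians in replicate 1 were 45.6 for coding exons, 56.1 for 5' UTRs and 47.0 for 3' UTRs, against 59.5 for the other autosomal sites. In replicate 2 they were 42.9 for coding exons, 47.7 for 5' UTRs and 45.7 for 3' UTRs, against 50.01. Of the 242 exonic sites, 237 had a peak in both replicates. The signal was higher in replicate 1 at 158 of these 237, and at 1173 of 1635 other autosomal sites with both peaks. The 2 values were within 2-fold of each other at 230 exonic sites (97.0%). The main list is itself thresholded for reproducibility between replicates, so this share follows in part from the choice of sites. It was not computed for other sites. The median ratio of replicate 1 to replicate 2 was 1.06 in coding exons, 1.21 in 5' UTRs and 1.05 in 3' UTRs.

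Fewer exonic than other sites passed the threshold in a single replicate. In replicate 1's own list 81 exonic sites were found (33.5%, interval 27.8 to 39.6%), where the whole main list had 54.6%, and in replicate 2's own list 72 (29.8%, 24.3 to 35.8%), where the whole list had 46.1%. For the other autosomal sites the shares were 55.6% and 45.1%. Of coding exon sites, 32 were found in replicate 1 (22.2%, 16.2 to 29.7%) and 38 in replicate 2 (26.4%, 19.9 to 34.1%). For 5' UTR sites the counts were 37 (55.2%, 43.4 to 66.5%) and 26 (38.8%, 28.0 to 50.8%), and for 3' UTR sites 12 (38.7%) and 8 (25.8%). Only the 5' UTR shares had intervals that included the whole list's share in both replicates. A total of 127 exonic sites (52.5%) were in neither replicate's own list, of which 89 were coding exon sites (61.8% of that class), against 34.2% of the other autosomal sites. Counted in its own list, which also holds sites outside the main list, replicate 1 had 111 exonic sites and replicate 2 had 94, with 47 coding exon sites in each.

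**Figure D4:**
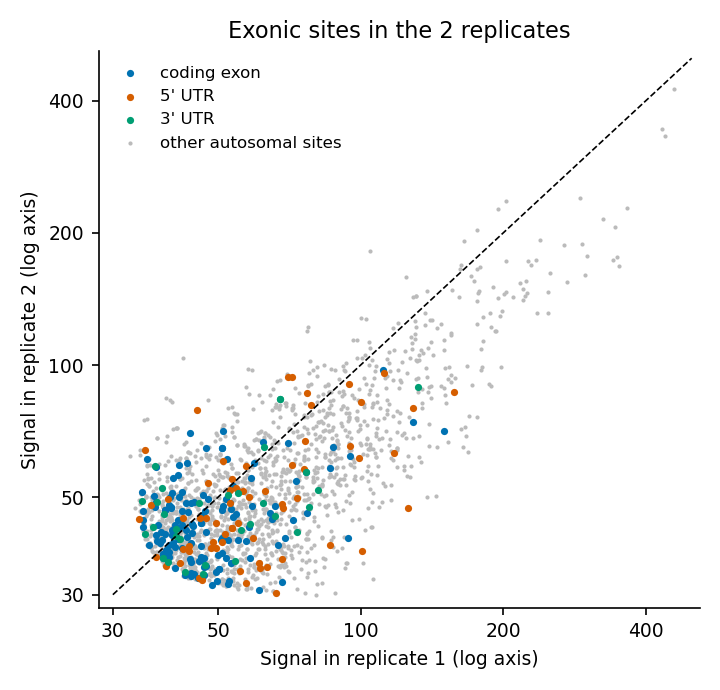
Signal of each exonic site in replicate 1 (x) and replicate 2 (y), both on log axes, coloured by class, with the other autosomal sites in grey and equality as a dashed line. Most coding exon points crowd near the medians of 45.6 and 42.9, and dos-3, at 150.1 and 70.7, lies among the few above 70 in both replicates.

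Among coding exons, the strongest site was in exon 1 of Y18D10A.4 (chromosome I), 51 bp from its start, with a signal of 217.2 and 111.3 and 97.4 in replicates 1 and 2. The next lay in the last of 11 exons of dos-3 (chromosome III, summit at 835946), which encodes a protein of the DOS type, co-ligands of Notch receptors. Its signal was 213.2, with 150.1 in replicate 1 and 70.7 in replicate 2. F56A11.4 had 195.8 (129.0 and 74.3 in the replicates) in exon 4 or exon 5, depending on the transcript, within 100 bp of an annotated noncoding RNA gene. These 3 sites stood above the rest of the class, and each was found in both replicates' own lists.

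The next coding exon site was at ltah-1.2, a homologue of leukotriene A4 hydrolase, with 154.1 (95.16 and 62.05). suro-1 had 153.6 (87.6 and 65.1) in the last of 10 exons, and F57B1.6 had 139.2 (70.2 and 66.4). In the last exon of eat-16, whose product is an RGS protein that limits Gq signalling, the signal was 136.1 (93.9 and 40.3), and the summit was 11 bp before the stop codon. C40H1.7 had 134.8 (62.4 and 66.9), lelo-2 had 131.3 (76.9 and 46.1) in its last exon and prmt-5, an arginine methyltransferase gene, had 120.9 (51.0 and 64.8) in exon 1. Of the 10 strongest coding exon sites, Y18D10A.4 and prmt-5 lay in a first exon, and dos-3, suro-1, eat-16 and lelo-2 in the last exon, of the transcript with the longest coding sequence.

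The strongest exonic site of all was in the 5' UTR of C34C12.2 (chromosome III, summit at 3456416), with a signal of 240.7 and replicate values of 157.2 and 87.1. Its summit was 2630 bp from the annotated start of its host and 184 bp before the start codon, in an annotated first exon that spans this stretch, and 2071 bp from the nearest start of any gene. pck-2, which encodes a phosphoenolpyruvate carboxykinase, had 208.5 (129.0 and 79.7), 32 bp from one of its starts in the middle of the gene. The F-box gene fbxa-3 had 202.6 (111.9 and 95.9), in exon 3 of its 5 exons, and cux-7 had 183.1 (125.8 and 47.2), 3 bp from its start. T28F4.5 had 179.7 (100.1 and 82.6).

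The 5' UTR of atp-1, which encodes a subunit of mitochondrial ATP synthase, had 178.0 (94.6 and 90.8), 7 bp from the start. At tent-5, a gene of a cytoplasmic poly(A) polymerase, the signal was 167.5 (99.4 and 61.6). At egl-30, the gene of the Gq alpha subunit, it was 165.2 (70.4 and 94.2), 226 bp from a start. egl-30 was the single one of these 8 sites with the higher value in replicate 2, and cux-7 was the single one absent from replicate 2's own list. EGL-30 and EAT-16 act in 1 signalling pathway, and both genes were hosts, at a 5' UTR and at the end of the coding sequence. This pairing was picked after the values were seen, and hosts among other genes of the pathway were not counted. The eat-16 site was absent from replicate 2's own list.

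Among 3' UTRs, C05D11.8 (chromosome III, summit at 6421232) had the highest signal, 220.3, with 132.1 and 89.2 in the replicates, and no protein-coding start lay within 1000 bp. cept-2, which encodes a choline/ethanolamine phosphotransferase, had 147.9 (67.6 and 83.6), 586 bp from the start of vha-13, a proton pump subunit gene. C10G11.6 had 134.3 (81.3 and 52.1), 1000 bp from the start of pnk-1. The kinase gene cdk-5 had 125.7 (76.8 and 57.0), with the start of kel-3 46 bp away.

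T28F4.8 had 125.1 (62.6 and 65.0), 184 bp from the start of T28F4.4. The patched-related gene ptr-12 had 121.3 (62.2 and 48.5) and was the single one of the 8 strongest 3' UTR sites in neither replicate's own list. The collagen gene col-153 had 116.9 (77.7 and 47.6), 56 bp from the start of F17C11.4, and riok-2, a RIO kinase gene, had 114.4 (65.9 and 45.2), 85 bp from the start of hprt-1. So 6 of the 8 strongest 3' UTR sites lay in the promoter of another gene, taken as the stretch from 1000 bp before to 200 bp after a protein-coding start. The share of 3' UTR bases, or of other exonic bases, that lie in such promoters was not computed.

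This held over the class in part. Of the 31 3' UTR sites, 11 lay in another gene's promoter and had a median signal of 114.4, and 20 lay in no promoter and had a median of 88.0. The first group was in replicate 1's own list at 7 of 11 sites and the second at 5 of 20. The ranges overlapped, at 14.9 to 147.9 for the 11 sites in a promoter and 4.36 to 220.3 for the 20 others.

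Coding exon sites did not differ in this way. Of the 144, 44 lay in the host's own promoter (median signal 82.7), 5 only in another gene's promoter (77.2) and 95 in no promoter (83.8). Of the 67 5' UTR sites, 52 lay in the host's promoter (97.9), 2 only in another gene's promoter and 13 in none (102.6).

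Coding exon summits lay near protein-coding starts more often than coding sequence as a whole, while UTR summits lay there about as often as UTR sequence. Within 500 bp of a protein-coding start lay 125 of the 242 exonic sites (51.7%), of which 61 were coding exon sites (42.4%, interval 34.6 to 50.5%), 57 were 5' UTR sites (85.1%, 74.7 to 91.7%) and 7 were 3' UTR sites (22.6%, 11.4 to 39.8%). Of all autosomal bases of the same class, 28.1% of coding, 86.8% of 5' UTR and 22.6% of 3' UTR bases lay this close to a start. The coding exon interval lay above the share of coding bases, and the UTR intervals included those of UTR bases. The median distance to the nearest start was 698 bp in coding exons, 49 bp in 5' UTRs and 1349 bp in 3' UTRs.

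Coding exon sites were also frequent in first and last exons. In the transcript with the longest coding sequence, 36 of 144 (25%, 18.6 to 32.7%) lay in the first exon, which holds 11.4% of coding bases, and 56 (38.9%, 31.3 to 47.0%) in the last exon, which holds 16.4%. Along the host gene from start to end, 5 successive stretches of equal length held 36, 19, 15, 26 and 48 coding exon sites. The 5' UTR sites gave 45, 10, 3, 6 and 3, and those beyond the first stretch include pck-2 and tent-5, whose summits were 32 and 89 bp from a start inside the gene. Of the 31 3' UTR sites, 30 lay in the last stretch. Position in the gene follows in part from the class for UTR sites, and the share of exonic bases in each stretch was not computed. The stop codon was within 200 bp of 46 coding exon summits and 12 3' UTR summits, and the share of bases this close to it was not computed.

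**Figure D5:**
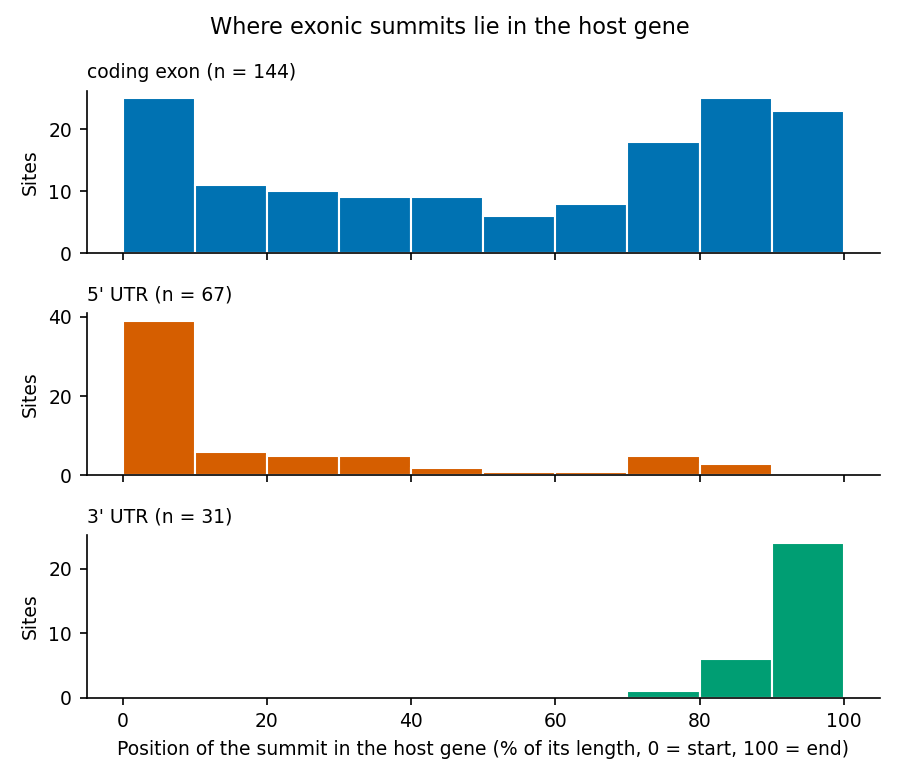
Number of exonic sites by position of the summit in the host gene, in bins of 10% of its length from start (0) to end (100), for coding exon, 5' UTR and 3' UTR sites. Coding exon sites are many in the first bin and in the last 3 bins, 5' UTR sites stand mostly in the first bin and 3' UTR sites in the last.

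The 225 host genes were 1.3% of the 17242 autosomal protein-coding genes. Their median length was 2915 bp, against 1964 bp for all autosomal protein-coding genes, and 134 sites lay in a host with several annotated transcripts. The share of all autosomal protein-coding genes with several transcripts was not computed. The sites were spread over the autosomes, with 48 on I, 41 on II, 55 on III, 39 on IV and 59 on V.

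Several sites shared a host, and 14 genes held more than 1. Only mnk-1, mthf-1, pck-2, unc-62 and zip-2 held several sites that overlapped no stronger site. At R08C7.12, cdk-5, cept-2, clec-187, clec-205, col-76, lfe-2, prmt-5 and unc-23 the second site was a weaker one that overlapped the first. The weakest mthf-1 site was of the same kind. mnk-1, which encodes a MAP kinase interacting kinase, held 4, in its 3' UTR at signals of 97.8 and 88.5 and in coding exons at 89.9 and 88.3, over 4552 bp of chromosome II. Their replicate values lay between 40.2 and 55.8, and none was in replicate 1's own list, while 3 were in that of replicate 2. mthf-1, the methylenetetrahydrofolate reductase gene, held 3, with signals of 51.0, 50.2 and 7.89. zip-2, a bZIP factor gene of the infection response, held a 5' UTR site (89.6) and a coding exon site (89.3), and with the strong site in the neighbouring gene dos-3 they spanned 2929 bp. unc-62, which encodes a Meis-type homeodomain protein, held a pair of 5' UTR sites at 92.8 and 73.7.

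Neighbouring hosts formed 6 groups of at least 3 exonic sites with no more than 3000 bp between successive summits, and 200 of the 242 sites had no other exonic site that close. On chromosome I, a group of 4 held R11A5.6 (87.2), both pck-2 sites (208.5 and 79.1) and suro-1 (153.6) in 4562 bp. Another on chromosome I held T28F4.8 (3' UTR, 125.1), T28F4.5 (5' UTR, 179.7) and T28F4.4 (coding exon, 112.0) in 2793 bp. The remaining groups were those of mnk-1, of mthf-1, of zip-2 with dos-3, and of unc-23 with T19A5.3. Those of mthf-1 and unc-23 each include a site that overlaps a stronger one.

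Some exonic sites overlapped a stronger site of the same list. A total of 20 (13 in coding exons, 4 in 5' UTRs, 3 in 3' UTRs) did so, with the stronger summit 199 to 224 bp away, and their own signals were 2.30 to 26.6. In all 20 the stronger summit was at the lower coordinate, and so it was for 121 of the 122 such sites of the whole list. The stronger site was itself exonic for 10 of them, as for the weak coding exon sites of cdk-5 (19.2), prmt-5 (3.99) and lfe-2 (3.02). It lay outside genes for 8, among them act-2 (26.6) and rps-13 (5.64), and in an intron for the pair rbm-34 (21.9) and pgp-1 (19.4). The replicate values printed for such a site can be those of the stronger neighbour's peak, as at cept-2, where both sites have 67.6 and 83.6. Of 21 exonic sites with a signal below 40, the one that overlapped no stronger site was K07C5.13 (7.26), named after its value was seen. Without the 20, the median signals were 85.7 in coding exons, 101.2 in 5' UTRs and 95.8 in 3' UTRs, against 108.1 for the other autosomal sites treated alike.

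Host genes were counted in gene families chosen by symbol, beside the 1.3% of all autosomal genes that were hosts. Cuticle collagens, the structural proteins of the nematode exoskeleton, had 7 hosts of 147 genes (4.76%, interval 2.33 to 9.50%). Of these, 6 carried their site in a coding exon and col-153 in the 3' UTR. The strongest were col-153 (116.9), col-93 (107.5), col-39 (107.5) and col-76 (88.6), and the other 3, col-63, col-56 and col-129, had 75.8 to 83.7. In the own lists of replicates 1 and 2 the collagen hosts were 3 and 1. Collagen genes share repeated coding sequence, and whether the authors' mapping split reads of near-identical copies between them was not tested.

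Ribosomal protein genes had 4 hosts of 78 (5.13%, 2.01 to 12.5%), all with the site in a coding exon. rps-9 had a signal of 87.0, rla-1 of 70.8, rpl-3 of 52.1 and rps-13 of 5.64. None was in the highest 25% of the whole list by signal, and rpl-3 had no overlapping peak in replicate 2's ranked list. No ribosomal protein gene was a host in either replicate's own list. Homeobox genes had 3 hosts of 65 (4.62%, 1.58 to 12.7%), all in 5' UTRs, namely ceh-38 (118.1), the Hox gene lin-39 (108.0) and unc-62, with 3 hosts in replicate 1's own list and 1 in that of replicate 2. The lin-39 summit was 20 bp from a start inside the gene, and the site was absent from replicate 2's own list. lin-39 was the single host among 10 autosomal genes of the list of earlier reported TRA-1 targets (10%, interval 1.79 to 40.4%).

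C-type lectin genes had 3 hosts of 237 (1.27%), clec-150 in its 5' UTR (132.6) and clec-187 and clec-205 in coding exons (89.4 and 78.1 at their stronger sites). Chemoreceptor genes had 3 hosts of 1331 (0.225%, interval 0.0767 to 0.661%), srv-1 (132.0), srdh-1 (73.0) and srap-1 (69.5), a share below that of all genes. In replicate 1's own list there were 1 lectin and 3 chemoreceptor hosts, and in that of replicate 2 there were 1 and 0. Of the 9 autosomal genes of DM-domain factors, the family that includes known TRA-1 targets, dmd-7 was the single host (11.1%, interval 1.99 to 43.5%). Its 5' UTR site (90.0) was absent from replicate 2's own list. None of the 11 autosomal genes of the sex determination list held an exonic site, for which the interval reaches 25.9%. No host was found among 68 histone, 61 sperm protein, 32 aminoacyl-tRNA synthetase, 33 proteasome and 8 heterochronic genes. Translation factors had 2 hosts of 40 genes (5%) and heat shock proteins 2 of 46 (4.35%). Nuclear hormone receptors had 2 of 247 (0.810%) and tubulin or actin genes 2 of 16 (12.5%). F-box genes had 1 host of 309 (0.324%), cytochrome P450 genes 1 of 67 (1.49%) and neuropeptide or insulin-like genes 1 of 107 (0.935%). Among these small counts, the intervals of translation factors (from 1.38%) and tubulin or actin genes (from 3.50%) lay above the share of all genes. The intervals of the other families in this group included it.

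Near the score threshold of 830, the members just inside were the 5' UTR site of mthf-1 (score 830, signal 50.2), F26F12.3 (831, 63.3) and ddo-2 (834, 83.8). Just outside were F25E5.9 (828, 69.1), ben-1 (827, 74.95) and col-103 (827, 69.6). Near the tRNA distance, pgp-1 at 107 bp and F49C5.9 at 117 bp were counted, and mdf-2 at 23 bp (signal 136.8) and lipl-4, whose summit lay in a tRNA gene (155.3), were not. The score reached its ceiling of 1000 at 146 exonic sites.

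An annotated noncoding RNA gene other than a tRNA lay within 100 bp of 12 exonic sites (4.96%), among them F56A11.4, both 3' UTR sites of mnk-1 and the 5' UTR site of zip-2, which was near a lincRNA. rbm-34 was near a snoRNA gene and F08H9.3 near a snRNA gene. The share of other autosomal sites this close to a noncoding RNA gene was not computed. Peak lists do not tell which of the overlapping genes such a site belongs to.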

How the data were processed

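Peak lists on ce11 were used as the authors deposited them, per the file names: for both replicates together a main list, a second list with the same threshold and a ranked list, and for each replicate its own thresholded and ranked lists. The main list held 2703 sites, that of replicate 1 alone 1682 and that of replicate 2 alone 1355. The deposited signal is the authors' peak value with no unit given, and it served to order and describe sites within a list. The deposited score is an integer that goes up as the irreproducible discovery rate (IDR) goes down, and the deposited −log10 of the IDR gave the stricter threshold of 0.001. Aligner and peak caller: not given in the sources used here.

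Summits were placed on the Ensembl release 115 annotation of WBcel235, with 1-based coordinates. Per-replicate values are those of the strongest overlapping peak. Named genes were the 10 coding exon, 8 5' UTR and 8 3' UTR sites of highest signal, members of the sex determination and earlier target lists, up to 4 hosts of each family with at least 3, hosts with most sites, sites with the exact core and sites beside a threshold. Others were named after their values were seen. The members, words and gene lists were chosen with earlier results of these data known. With 1 group of 2 replicates, no test was made. The steps were tested on simulated sites. Alternatives were other lists, thresholds, windows, classes and overlaps. Python 3.11.15, numpy 2.4.6, pandas 2.3.3 and matplotlib 3.10.9 were used.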

Additional observations from a re-analysis of the deposited data

Results flagged for a closer look

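In the ranked list of both replicates, 3 exonic sites passed the score threshold of the main list and were absent from it, so no count above includes them. They were a coding exon site in Y95D11A.5 (chromosome I, signal 122.7, score 1000), the 5' UTR site of mnk-1 (chromosome II, 72.7, score 830) and a coding exon site in ZC247.1 (chromosome I, 72.7, score 951). The site in mnk-1 lay 1 bp from an annotated start, and mnk-1 held 4 other exonic sites. Why the authors left them out is not given in the sources used here.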

How the results depend on the processing

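Of 133 values recomputed for 29 results, 65 stayed within the limits set for them and 68 moved. The limit was a fixed fold range for counts and densities and the counting interval for shares. For median signals relative to the other autosomal sites it was the spread between replicates. A reversal could be called for these relative medians only, and none was. In each list tried, density was lowest in coding exons, then 3' UTRs, introns and sequence outside genes, and highest in 5' UTRs, and the median signal stayed below that of the other autosomal sites in all 3 classes. With 1 replicate alone, in that replicate's own list, there were 94 to 111 exonic sites, 47 in coding exons from either, 34 to 46 in 5' UTRs and 13 to 18 in 3' UTRs. Densities were then 2.22 per Mb in coding exons from either, 28.6 to 38.7 in 5' UTRs, 4.81 to 6.66 in 3' UTRs, 8.81 to 10.5 in introns and 18.8 to 24.7 outside genes. Shares within 500 bp of a start were 57.7 to 61.7% of all, 40.4 to 51.1% in coding exons, 87.0 to 94.1% in 5' UTRs and 15.4 to 27.8% in 3' UTRs. Median signals relative to the other autosomal sites were 0.782 to 0.823 for all, 0.760 to 0.771 in coding exons, 0.797 to 0.903 in 5' UTRs and 0.816 to 0.828 in 3' UTRs, where the main list gave 0.825, 0.788, 0.932 and 0.841. Hosts numbered 0 from either for ribosomal proteins, 1 to 3 for collagens, 0 to 3 for chemoreceptors, 1 to 3 for homeobox genes and 1 from either for C-type lectins. The lower counts for chemoreceptors, homeobox genes and collagens came from replicate 2.

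At an IDR of at most 0.001 there were 67 exonic sites, 26 in coding exons, 30 in 5' UTRs and 11 in 3' UTRs, so that coding exons gave 38.8% of exonic sites and not 59.5%. Densities were 1.23, 25.2, 4.07, 7.84 and 19.4 per Mb in coding exons, 5' UTRs, 3' UTRs, introns and outside genes. The share near a start was 61.2% for all and 45.5% in 3' UTRs, and relative medians were 0.791 for all, 0.755, 0.853 and 0.815 by class. The second thresholded list gave 220 coding exon and 47 3' UTR sites (10.4 and 17.4 per Mb), with relative medians of 0.784 for all, 0.764 in coding exons and 0.804 in 3' UTRs. Windows of 200 bp gave 39.7% near a start for all, 29.2% in coding exons and 73.1% in 5' UTRs, and windows of 1000 bp gave 67.4%, 59.7%, 95.5% and, in 3' UTRs, 41.9%. With 1 transcript a gene, 37 sites lay in 5' UTRs. With exons numbered in the transcript with the longest coding sequence, first exons held 29.8% of the 242 exonic sites and 53.7% of the 67 5' UTR sites, in place of 45.0% and 95.5%. With 25 bp to each side of the summit in exons, 180 exonic sites were left. Of these, 112 were in coding exons, 43 in 5' UTRs and 25 in 3' UTRs. The exact core was at 0.413% of exonic sites. Leaving out sites that overlap a stronger one, chosen after seeing the data, gave 0.886 as the relative median in 3' UTRs. Causes of these moves were not tested. No paired analysis was possible because the series has 1 group.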

Other observations

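The 6 sites in exons of noncoding transcripts of protein-coding genes, which the count of exonic sites leaves out, were at tos-1 (4 sites), fkh-7 and ash-2. The tos-1 sites lay on chromosome V with signals of 201.0, 150.4, 130.0 and 77.2. The site at fkh-7, a forkhead gene, had 169.5 and that at ash-2, which encodes a subunit of a histone methyltransferase complex, had 154.3. These genes were named after their values were seen.

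The share of sites with an IDR of at most 0.001 also differed by class. It was 18.1% of coding exon sites (interval 12.6 to 25.1%), 44.8% of 5' UTR sites (33.5 to 56.6%) and 35.5% of 3' UTR sites (21.1 to 53.1%), against 48.2% of the other autosomal sites (45.8 to 50.6%). The coding exon interval did not overlap that of the other sites.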
